A study of Homo sapiens with 28 samples.

Results

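The comparison set AN3CA cells expressing wild-type ARID1A against AN3CA cells expressing wild-type ARID1B, by the open chromatin of each. It used 4 of the 28 libraries of the study, ARID1A_WT 1 and 2 and ARID1B_WT 1 and 2, chosen by their titles, with the 4 Empty_vector libraries beside them as background. AN3CA is an established human endometrial carcinoma line, and all libraries come from cells grown alike in serum-containing medium. The titles name ATAC-seq, which inserts sequencing adapters into accessible DNA with a transposase, while the design text of the series speaks of CUT&Tag; the lists were read as ATAC-seq. The other 20 libraries carry 10 altered forms of the proteins. They entered the common list length and the merged regions. Otherwise they were set beside the wild types, to ask which of them call the same regions. Of these, ARID1A_delIDR1 and ARID1A_CBR are truncations per the labels, ARID1A_DBDmut has a mutated ARID domain, ARID1A_DDX4 is a hybrid with the disordered region of DDX4, and ARID1A_Y42S, ARID1A_AQGscramC1C2, ARID1B_S320_G327del, ARID1B_A457_G461del, ARID1B_Block13del and ARID1B_Block9del are called as in their titles. The titles and genotype labels disagree for 5 of these constructs (the genotype label names the empty vector), and the titles were followed. The labels do not give how the proteins were expressed, how much of each was made or whether replicates were separate cultures, so p-values speak of how much these libraries vary, and that variation could be technical.

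ARID1A and ARID1B are paralogous subunits of the canonical BAF (cBAF) chromatin remodeling complex, which uses the energy of ATP to slide and evict nucleosomes and so opens regulatory DNA. A cBAF complex holds one paralogue or the other. Both proteins join a long intrinsically disordered stretch to an ARID domain, which binds DNA, and to a carboxy-terminal part that ties the complex together. ARID1A is among the genes most often inactivated in endometrial carcinoma.

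Peak names begin with a date code, and the proteins do not share one. ARID1A_WT 1 shares a code with Empty_vector 1 and ARID1A_WT 2 shares another with Empty_vector 2, while ARID1B_WT 1 and 2 share yet another with Empty_vector 3 and 4. A direct difference between the proteins and a difference between date codes therefore cannot be told apart. The Empty_vector libraries 1 and 2, set against Empty_vector 3 and 4, gave the size of the date code difference in cells without either construct, and it is given beside the results for which the same measure was taken.

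The deposited lists had 76589 and 62091 peaks in ARID1A_WT 1 and 2 and 63529 and 59826 peaks in ARID1B_WT 1 and 2. Empty_vector 1 to 4 had 45286, 49528, 24573 and 28353 peaks. No read counts come with these lists, so depth is unknown. Since longer lists call more regions, all were cut to the same 19433 peaks of highest significance, as many as the shortest of the 28 held. Overlapping peaks were merged, and 32972 merged regions were called by at least 2 libraries. At this length the median peak was 1119 and 1053 bp wide in the ARID1A_WT libraries and 890 and 792 bp in the ARID1B_WT libraries, and it was 1061, 1179, 837 and 931 bp in Empty_vector 1 to 4. Peaks were thus wider on the ARID1A side by 245 bp on average (exact permutation test, two-sided, p = 0.333, the smallest that 2 against 2 libraries allow), and the Empty_vector libraries of the same date codes differed in the same direction, with means of 1120 bp in Empty_vector 1 and 2 and 884 bp in Empty_vector 3 and 4. In whole lists the Empty_vector order was the other way, 588 bp in Empty_vector 1 and 2 and 685.5 bp in Empty_vector 3 and 4. The lists covered 22.5 ± 0.948 Mb with ARID1A_WT and 18.1 ± 1.27 Mb with ARID1B_WT (SD, n = 2 each), against means of 23.1 Mb in Empty_vector 1 and 2 and 18.1 Mb in Empty_vector 3 and 4.

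The lists of the wild-type proteins shared much of their length, and still differed from each other more than the Empty_vector lists of the same date codes did. All 4 wild-type libraries called 13811 of the 32972 regions (41.9%), and 11502 regions (34.9%) were called by these 4 and by all 4 Empty_vector libraries. The Jaccard index of a pair (shared calls as a fraction of all calls of the pair) was 0.684 on average over the 4 pairs of an ARID1A_WT with an ARID1B_WT library, with a range from 0.675 to 0.694. It was 0.824 between the ARID1A_WT replicates, which differ in date code, and 0.776 between the ARID1B_WT replicates, which share one. The 4 Empty_vector pairs that cross the same date codes had 0.792 on average, with a range from 0.779 to 0.801. The pairs of the proteins and the Empty_vector pairs did not overlap; no test was run, since pairs share libraries. The order depended on the ranking and the length: with peaks ranked by fold enrichment the index was 0.548 for the proteins and 0.549 for Empty_vector across date codes, and over whole lists it was 0.689 and 0.559.

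**Figure D1:**
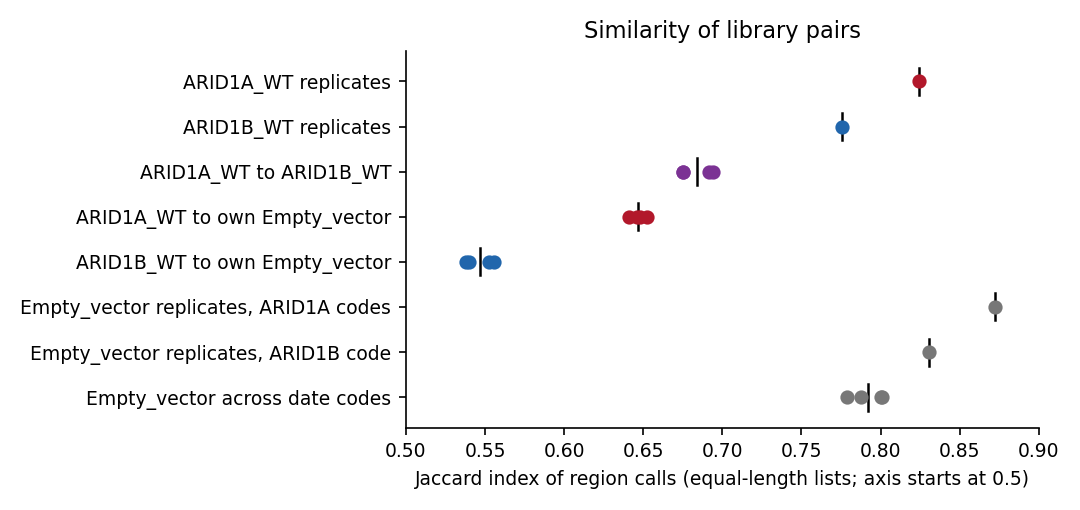
Jaccard index of region calls at equal list length for each pair of libraries (points) and the mean of each kind of pair (black bars), on an axis that starts at 0.5. Pairs of ARID1A_WT with ARID1B_WT lie between 0.675 and 0.694, below the Empty_vector pairs across date codes, between 0.779 and 0.801, and above the pairs of each protein with the Empty_vector libraries of its own codes.

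ARID1B_WT stood further from the empty vector than ARID1A_WT did, both in the regions it added and in those it left out. At equal list length these counts are linked, since a peak at an added region takes a place in the list. They are therefore not separate evidence. ARID1A_WT 1 and 2 called 3608 and 3593 regions that no Empty_vector library called, and ARID1B_WT 1 and 2 called 4884 and 5070, of 10141 such regions. The means were 3600.5 ± 10.6 with ARID1A_WT and 4977 ± 132 with ARID1B_WT (SD, n = 2 each), a ratio of 1.38 for ARID1B_WT over ARID1A_WT. Of the 15702 regions of all 4 Empty_vector libraries, ARID1A_WT 1 and 2 left out 1622 and 1688, and ARID1B_WT 1 and 2 left out 2762 and 3032, a ratio of 1.75 for ARID1B_WT over ARID1A_WT. The groups did not overlap in either count, and each gave an exact two-sided permutation p of 0.333, the smallest possible. The Jaccard index with the Empty_vector libraries of the same date codes was 0.647 for ARID1A_WT and 0.547 for ARID1B_WT. With the Empty_vector libraries of the other protein's codes it was 0.630 for ARID1A_WT and 0.545 for ARID1B_WT. Counting a region as called by a peak anywhere in the whole lists, the index was 0.778 for ARID1A_WT and 0.679 for ARID1B_WT with the Empty_vector libraries of their own codes, but 0.686 for ARID1A_WT and 0.734 for ARID1B_WT with those of the other protein's codes, so there the order depended on the controls. In whole lists the ratio of added regions, again ARID1B_WT over ARID1A_WT, was 0.959 and the groups overlapped. When lists were trimmed to equal covered length, which keeps fewer of the wide ARID1A_WT peaks, the ratio of added regions was 3.52, while that of regions left out was 1.15 with overlapping groups.

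**Figure D2:**
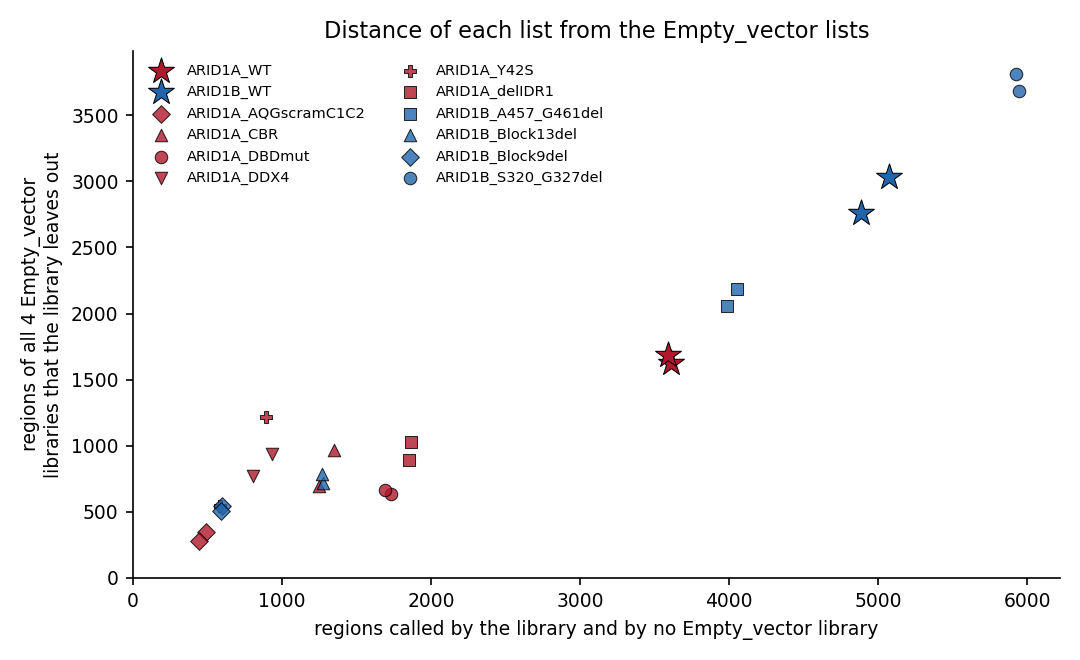
Regions that a library calls and no Empty_vector library does (x axis) against regions of all 4 Empty_vector libraries that it leaves out (y axis), 1 point per library; red marks forms of ARID1A, blue forms of ARID1B and stars the wild types. The ARID1A_WT libraries sit near 3600 added regions and the ARID1B_WT libraries near 4977, between the libraries of ARID1B_A457_G461del and those of ARID1B_S320_G327del.

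Set among the altered forms in the plot of distances from the empty vector, both wild types lay far out. ARID1B_S320_G327del had more added regions than either wild type, with 5923 and 5944, and ARID1B_A457_G461del had 3988 and 4055. Among ARID1A forms the highest was ARID1A_delIDR1 with 1863 and 1848. ARID1B_S320_G327del shares its date code with ARID1B_WT, and ARID1B_A457_G461del does not.

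A region called by both libraries of one protein and neither of the other is called ARID1A-only or ARID1B-only here. ARID1A-only regions numbered 1621 (4.92% of all regions) and ARID1B-only regions 1776 (5.39%). At this setting the Empty_vector libraries split by date code in fewer regions, with 950 (2.88%) called by Empty_vector 1 and 2 alone and 831 (2.52%) by Empty_vector 3 and 4 alone. Ranked by fold enrichment, the Empty_vector splits, 2938 and 3026 of 42695 merged regions, outnumbered the 2022 ARID1A-only and 2161 ARID1B-only regions. When a call asked for 50% of the region to be covered, the ARID1A-only class numbered 2383 against a split of 2666. The ARID1B-only class numbered 1549 against 451 there, of 32241 merged regions. In whole lists the counts were 6525 against 13083 and 3175 against 50, of 95412 merged regions. Those lists differ in length, with 45286 and 49528 peaks in Empty_vector 1 and 2 and 24573 and 28353 in Empty_vector 3 and 4. The whole-list splits therefore cannot tell date code from list length, and nothing is drawn from them. At the main setting the splits were mostly at other regions, but the overlap leaned to the date code of each protein. Of the ARID1A-only regions, 83 were also split in favour of Empty_vector 1 and 2. They were 5.12% of the class, against 2.88% of all regions, and 8.74% of those split regions. Another 19 of the class (1.17%) were split the other way. Of the ARID1B-only regions, 55 were also split in favour of Empty_vector 3 and 4. They were 3.10% of the class, against 2.52% of all regions, and 6.62% of those split regions. Another 4 of the class (0.225%) were split the other way. Regions with the Empty_vector libraries alike, all 4 calling or none, were 1245 of the ARID1A-only (3.78% of all regions) and 1625 of the ARID1B-only regions (4.93%). At equal covered length ARID1A-only regions numbered 280 and ARID1B-only regions 2292, of 23785 merged regions.

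The classes differed in what the empty vector showed at the same place. Of the ARID1A-only regions, 538 (1.63% of all regions) were new, called by no Empty_vector library, and 707 (2.14%) were kept, called by all 4. Of the ARID1B-only regions, 1525 (4.63%) were new and 100 (0.303%) were kept. Kept regions were thus 7.07 times as many with ARID1A_WT alone as with ARID1B_WT alone, and new regions 2.83 times as many with ARID1B_WT alone. The kept counts moved with the setting: they were 95 with ARID1A_WT alone and 76 with ARID1B_WT alone at equal covered length, 617 and 21 when 50% of the region had to be covered, 939 and 242 without ARID1A_WT 1, and 969 and 215 without ARID1A_WT 2. A kept region of the ARID1A-only class is one that both ARID1B_WT libraries ranked out of the list, so this split restates the counts of added and left-out regions per library and is no separate evidence. A further 1905 regions (5.78%) were new with both proteins, called by all 4 wild-type and no Empty_vector library. In whole lists, of 95412 merged regions, the new regions numbered 3607 for ARID1A_WT alone and 3053 for ARID1B_WT alone, the opposite order.

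**Figure D3:**
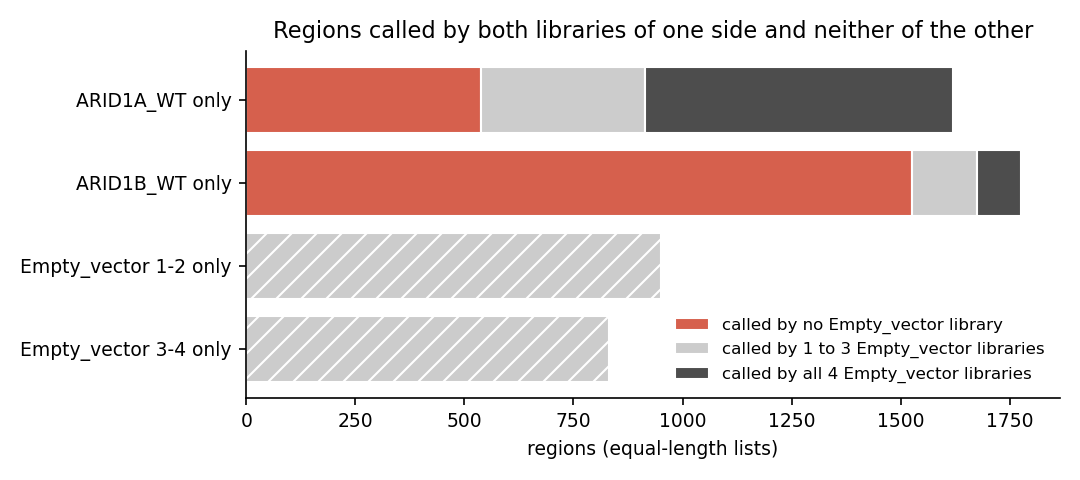
Regions called by both libraries of 1 side and neither of the other at equal list length; bars of the wild types are divided by how many Empty_vector libraries call the region, and hatched bars give the Empty_vector split by date code. ARID1A_WT alone has 538 regions in no Empty_vector list, against 1525 for ARID1B_WT alone, and 707 that all 4 Empty_vector libraries call, against 100 for ARID1B_WT alone.

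Among the split classes the ARID1A-only kept regions were the widest. The median width was 847 bp for the ARID1A-only new, 710 bp for the ARID1B-only new and 974 bp for the shared new regions. Kept regions had a median of 1450 bp in the ARID1A-only and 806.5 bp in the ARID1B-only class, and regions called in all 8 libraries had 1492 bp. New regions lay away from constant open chromatin: the median distance to a region called in all 8 libraries was 57.1 kb for ARID1A-only new, 65.6 kb for ARID1B-only new and 50.2 kb for shared new regions, against 34.7 kb for ARID1A-only kept regions. Another region of the same class lay within 50 kb of 7.43% of ARID1A-only new, 17.5% of ARID1B-only new and 24.7% of shared new regions; larger classes have nearer neighbours, so these shares carry no comparison between classes. By chromosome, new regions had larger shares on chromosome 5, which holds 6.75% of all regions, 9.29% of the ARID1A-only new, 9.44% of the ARID1B-only new and 12.0% of the shared new regions. Chromosome 19 holds 4.82% of all regions but 2.23% of the ARID1A-only new, 1.25% of the ARID1B-only new and 8.77% of the ARID1A-only kept regions. Chromosome X holds 1.84% of all regions and 5.23% of the ARID1A-only kept regions. These shares were not tested.

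The classes were differences of rank rather than of presence. Of the 538 ARID1A-only new regions, 95.9% were also in both ARID1B_WT lists when each wild-type list was taken to 59776 peaks, the length of the shortest whole wild-type list. Their median rank was 15603.5 in the ARID1A_WT and 27519 in the ARID1B_WT lists. Of the 1525 ARID1B-only new regions, 96.9% were also in both ARID1A_WT lists at that length, and their median rank was 29111 in the ARID1A_WT and 13943 in the ARID1B_WT lists. The empty vector did not have most of these regions even in whole lists. Empty_vector 1 to 4 called 36.4%, 41.8%, 5.76% and 12.8% of the ARID1A-only new regions in their whole lists, and 6.56%, 8.85%, 2.03% and 3.08% of the ARID1B-only new regions. Both classes were called more often in the longer lists of Empty_vector 1 and 2, and ARID1A-only new regions more often than ARID1B-only new regions in each of the 4 libraries.

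Where both proteins called a new region, ARID1B_WT more often ranked it higher. The 1905 shared new regions had median ranks of 12355 and 12510 in ARID1A_WT 1 and 2 and of 9418 and 8886 in ARID1B_WT 1 and 2, where a lower rank is a more significant peak. Both ARID1A_WT libraries ranked the region ahead of both ARID1B_WT libraries in 209 of them (11.0%), and both ARID1B_WT libraries were ahead in 1058 (55.5%). In the 11502 regions called in all 8 libraries the order was the other way, with ARID1A_WT ahead in 4145 (36.0%) and ARID1B_WT ahead in 2045 (17.8%). At these regions Empty_vector 1 and 2 were both ahead of Empty_vector 3 and 4 in 2958 (25.7%) and both behind in 2503 (21.8%). Over all 13811 regions that the 4 wild-type libraries share, ARID1A_WT was ahead in 4453 (32.2%) and ARID1B_WT in 3230 (23.4%). In lists of equal length, better ranks at some regions mean worse ranks at others. These orders and the counts of added regions are therefore not separate evidence. No Empty_vector library called the shared new regions, so no date code measure exists for their order. Protein and date code cannot be told apart there. The authors' fold enrichment had medians of 5.55 and 5.43 at shared new regions in the ARID1A_WT libraries and of 6.50 and 6.89 in the ARID1B_WT libraries. It was also higher with ARID1B_WT at regions called in all 8 libraries, with 5.84 and 5.82 in the ARID1A_WT libraries, 6.51 and 6.95 in the ARID1B_WT libraries and 6.15, 5.84, 6.90 and 6.64 in Empty_vector 1 to 4, so fold enrichment moved with the date code, and for single regions it is given below as a description only.

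The regions with the best ranks in each class were taken as examples, 10 per class among those with the Empty_vector libraries alike. All coordinates are of hg19, and no gene annotation of that build was used here. All 10 ARID1B-only regions were new, and none had an Empty_vector peak even in whole lists. The leading one, chr10:46973973-46975737, had ranks of 32874 and 29686 in ARID1A_WT 1 and 2 and of 2203 and 3708 in ARID1B_WT 1 and 2, with fold enrichments of 3.03 and 3.05 in the ARID1A_WT and 4.27 and 4.19 in the ARID1B_WT libraries. The next, chr7:130335460-130335903, is 444 bp long and had ranks of 28213 and 23386 with ARID1A_WT and of 3931 and 2563 with ARID1B_WT. Its fold enrichment was 6.36 and 5.81 with ARID1A_WT and 10.4 and 12.3 with ARID1B_WT, so a peak was present in all 4 libraries. The region chr5:73650665-73651545 had ranks of 23461 and 25719 with ARID1A_WT and of 5021 and 3591 with ARID1B_WT. Over the 10 regions, ranks with ARID1A_WT ran from 20417 to 34724. Both ARID1B_S320_G327del libraries called all 10 at equal length and both ARID1B_A457_G461del libraries called 8, while no library of any altered ARID1A form or of ARID1B_Block9del called any at that length. In whole lists from 5 to 12 altered libraries had a peak at these regions. Altered ARID1A libraries were among the 12 at chr10:46973973-46975737, since fewer altered ARID1B libraries exist.

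The 10 ARID1A-only examples were mixed, with 6 new and 4 kept. The leading one, chr1:65774985-65775879, was kept, with ranks of 4046 and 9653 in ARID1A_WT 1 and 2 and of 34066 and 20427 in ARID1B_WT 1 and 2, so that ranks also differed widely within each protein. Its fold enrichment was 9.72 and 7.26 with ARID1A_WT and 5.46 and 7.53 with ARID1B_WT. The best-ranked new one, chr7:155021650-155022440, had ranks of 7416 and 8063 with ARID1A_WT and of 25510 and 19948 with ARID1B_WT, and it is the only one of the 10 with no Empty_vector peak in whole lists. The kept region chr17:41321041-41324307, the widest at 3267 bp, had ranks of 9164 and 8275 with ARID1A_WT and of 19670 and 24667 with ARID1B_WT, against 8658, 8377, 8815 and 8045 in Empty_vector 1 to 4. A kept region of this class ranks worse with ARID1B_WT than in the other 6 lists by its definition. Both ARID1A_DBDmut libraries called all 10, and both ARID1B_S320_G327del libraries called 6.

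Libraries whose calls did not define the classes, though their peaks entered the merged regions, recalled them unevenly. ARID1B-only new regions were called mainly by 2 altered ARID1B forms. ARID1B_S320_G327del called 68.0% and 68.6% of them and ARID1B_A457_G461del, of another date code, 49.8% and 50.7%. ARID1B_Block13del called 6.30% and 5.97% and ARID1B_Block9del 0.590% and 0.525%. The 6 altered ARID1A forms called from 0.459% (ARID1A_AQGscramC1C2) to 1.70% (ARID1A_delIDR1) on average. Whole lists told the groups apart less, with 71.4% and 60.3% in ARID1A_DBDmut and 98.8% and 97.8% in ARID1B_A457_G461del. The 95% Wilson intervals of the shares at equal length, which cover counting error only, reached at most 2.51 points to either side for ARID1B-only new and 4.22 points for ARID1A-only new regions.

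ARID1A-only new regions recurred with forms of both proteins. ARID1B_S320_G327del called 50.6% and 53.7% of them, although it shares its date code with the ARID1B_WT libraries that left them out. ARID1A_DBDmut called 39.4% and 32.9%, ARID1A_delIDR1 26.0% and 28.4%, and ARID1A_CBR 16.4% and 17.7%; these share the date codes of ARID1A_WT. ARID1B_A457_G461del called 15.1% and 16.2%. The shared new regions were called by ARID1B_S320_G327del at 94.2% and 94.9%, by ARID1B_A457_G461del at 81.2% and 82.6%, and by ARID1A_DBDmut at 48.6% and 45.3%. All 6 altered ARID1A forms thus called a larger share of ARID1A-only new than of ARID1B-only new regions, and 3 of the 4 altered ARID1B forms did the opposite, ARID1B_Block9del being the exception. Empty_vector whole lists, with neither construct, also leaned to the ARID1A-only new regions, at 24.2% against 5.13% on average. The lean was small in ARID1A_Y42S (3.44% against 1.02%), ARID1A_AQGscramC1C2 (2.23% against 0.459%) and ARID1B_Block9del (2.42% against 0.557%). The count of forms is therefore a description and does not show a match to the protein.

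The forms that recalled the most ARID1B-only new regions recalled the fewest ARID1A-only kept regions at equal list length. A list of fixed length that takes in more new regions has fewer places for others, so this relation is partly built in. Of the 707 ARID1A-only kept regions, which ARID1B_WT ranked out of its list, ARID1B_S320_G327del called 18.4% and 21.1% and ARID1B_A457_G461del 53.0% and 49.4%. The other altered constructs called between 77.1% and 97.7%. In whole lists ARID1B_S320_G327del called 98.9% and ARID1B_A457_G461del 98.8% of these regions on average. The other altered constructs called from 93.8% (ARID1A_Y42S) to 100% (ARID1A_CBR) there. Of the 100 ARID1B-only kept regions, ARID1B_S320_G327del called 47% and 35%, ARID1B_A457_G461del 68% and 77%, ARID1B_Block13del 89% and 91% and ARID1B_Block9del 89% and 90%, and the altered ARID1A forms called from 70.5% to 95% on average.

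**Figure D4:**
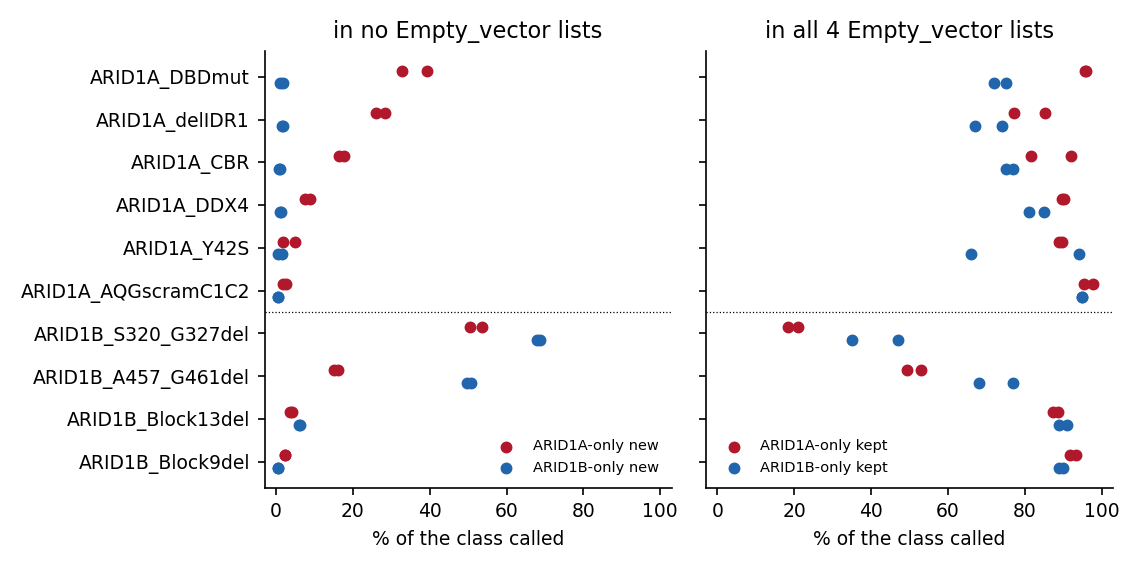
Percent of the ARID1A-only (red) and ARID1B-only (blue) regions that each library of the 10 altered constructs calls at equal list length, with new regions on the left and kept regions on the right; 2 points per construct are its libraries. Blue points for new regions reach 49.8% to 68.6% in ARID1B_A457_G461del and ARID1B_S320_G327del and stay at or below 1.84% in every library of an altered ARID1A form.

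One date code holds altered forms of both proteins, which allows a test in which the scored libraries share a date code. The classes themselves were defined on wild types of different date codes. ARID1A_Y42S is the only ARID1A form there, and libraries of the same construct were permuted as separate units. Each library was scored by the percent of ARID1B-only regions it called minus the percent of ARID1A-only regions. The 6 libraries of ARID1B_A457_G461del, ARID1B_Block13del and ARID1B_Block9del averaged -19.2 points and the 2 ARID1A_Y42S libraries -40.7 points, with both groups negative because the ARID1A-only class holds many kept regions. The difference of 21.5 points did not pass an exact two-sided permutation test (p = 0.357 over 28 splits, of which the smallest possible p is 0.0357). It rested on ARID1B_A457_G461del, whose libraries scored 18.0 and 20.3. ARID1B_Block13del scored -34.9 and -35.0, ARID1B_Block9del -41.9 and -41.7, and ARID1A_Y42S -39.7 and -41.6. On the same score Empty_vector 1 to 4 had -50.3, -52.7, -40.9 and -42.1. ARID1B_Block9del and ARID1A_Y42S thus lay near Empty_vector 3 and 4. On new regions alone the difference was 14.1 points (exact p = 0.143). Over the means of all 10 altered constructs on new regions, chosen after the values were seen, the 4 ARID1B forms averaged 12.8 and the 6 ARID1A forms -14.6 points (exact permutation p = 0.0143 over 210 splits), but these constructs differ in date code. ARID1A_DBDmut, ARID1A_delIDR1 and ARID1A_CBR share the codes of ARID1A_WT, and ARID1B_S320_G327del shares that of ARID1B_WT. The other constructs share neither. The classes were defined across those same codes, so this p-value cannot tell protein from date code, and no conclusion is drawn from it.

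Longer lists gave classes of similar size. With the wild-type lists at 59776 peaks, 79573 merged regions were found, of which 41961 (52.7%) were called by all 4 libraries, 4694 (5.90%) by ARID1A_WT alone and 5244 (6.59%) by ARID1B_WT alone. Of these, 98.8% of the ARID1A_WT-alone and 99.6% of the ARID1B_WT-alone regions ranked below place 19433, and their median widths were 444 and 437 bp, against 901 bp for the shared regions. The cut to 59776 peaks shaped these classes, since ARID1A_WT 1 had 76530 peaks to cut from and ARID1B_WT 2 had 59776. Of the ARID1B_WT-alone regions, 46.2% were in at least 1 whole ARID1A_WT list and 6.43% in both. Of the ARID1A_WT-alone regions, 6.77% were in at least 1 whole ARID1B_WT list and 0% in both. No whole Empty_vector list held 50.7% of the ARID1A_WT-alone regions and 94.1% of the ARID1B_WT-alone regions. Empty_vector 3 and 4, of the date code of ARID1B_WT, are the shortest of the 8 lists, and their part in this difference was not tested.

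To compare strength where every library had a peak, regions found in all 8 whole lists were ranked within each library. There were 19945 such regions (60.5% of all), and their ranks by the deposited -log10 p-value were turned into normal scores, so that 1 unit is 1 SD of the ranking. Tests used limma with Benjamini-Hochberg adjustment over all 19945 regions and an adjusted p under 0.05. ARID1A_WT against ARID1B_WT gave 113 regions higher (0.567%) and 304 lower (1.52%). Empty_vector 1 and 2 against Empty_vector 3 and 4 gave more, 463 higher (2.32%) and 656 lower (3.29%). The SD of the shift over regions was 0.406 between the proteins and 0.448 between the Empty_vector sets. By the SD, the date code difference in the empty vector was at least as wide as the difference between the proteins. Both sets of counts depended on single libraries. The Empty_vector counts fell sharply without Empty_vector 1 or 2, fell less without Empty_vector 3 and rose without Empty_vector 4. Those of the direct comparison fell sharply without ARID1A_WT 1, ARID1A_WT 2 or ARID1B_WT 2. Without ARID1B_WT 1 its higher count rose and its lower count fell. Each of these fits leaves a single library in a group, so their counts are not set against those over all libraries.

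Each protein was then set against the Empty_vector libraries of its own date codes. ARID1A_WT had 441 regions higher (2.21%) and 232 lower (1.16%), and ARID1B_WT had 845 higher (4.24%) and 561 lower (2.81%). Leaving out 1 of its 4 libraries at a time left ARID1A_WT with 115 to 163 higher and 30 to 63 lower. Of the calls over all libraries 280 were higher with both proteins, which is 63.5% of those of ARID1A_WT and 33.1% of those of ARID1B_WT. Another 75 were lower with both, 32.3% of those of ARID1A_WT and 13.4% of those of ARID1B_WT, and 8 were called in opposite directions. Across regions the shifts had a Pearson correlation of 0.453 and a Spearman correlation of 0.266; regions are not replicates, and the comparisons share no library. The SD of the shift was 0.402 for ARID1A_WT and 0.488 for ARID1B_WT, and the main axis of the cloud rose by 1.52 units of ARID1B_WT shift per unit of ARID1A_WT shift.

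**Figure D5:**
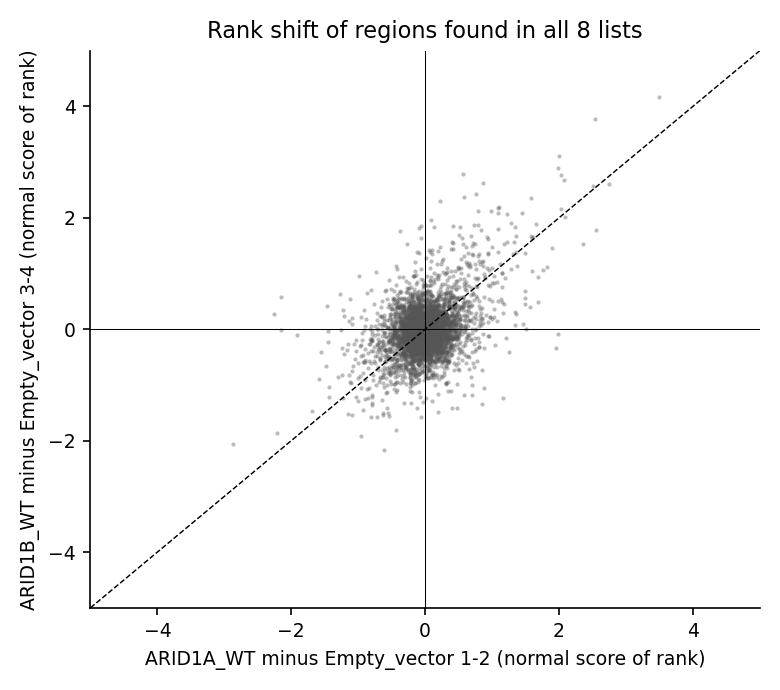
Rank shift against the Empty_vector libraries of the same date codes, in normal-score units, for ARID1A_WT (x axis) and ARID1B_WT (y axis), shown for 4000 of the 19945 common regions drawn at random; the dashed line marks equal shifts. The points spread more along the ARID1B_WT axis (SD 0.488) than along the ARID1A_WT axis (SD 0.402).

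The test of the difference itself, the ARID1A_WT shift minus the ARID1B_WT shift, each against its own Empty_vector libraries, gave 20 regions higher with ARID1A_WT (0.100%) and 42 lower (0.211%) by limma, with 2242 of 19945 at an unadjusted p under 0.05. The Empty_vector libraries themselves differed by date code at most of these: in 18 of the 20 and 31 of the 42 the Empty_vector contrast was called in the direction opposite to the difference. The direct comparison of the proteins was called the same way in 5 of the 20 and 15 of the 42. The same fit gave 0 and 0 without Empty_vector 1 and likewise without Empty_vector 2, 7 and 11 without ARID1A_WT 1, 1 and 4 without ARID1A_WT 2, and 50 and 100 without Empty_vector 4.

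Kept regions could be followed on this scale, since 97.5% of the ARID1A-only kept and 99.0% of the ARID1B-only kept regions were in all 8 lists. These classes were chosen by ranks in these same 8 libraries, which fixes on which side of the list limit each library falls, so all values are given as description. As a percentile among the common regions, where 100 is the most significant, the ARID1A-only kept regions had medians of 35 and 35.5 in ARID1A_WT 1 and 2, of 22.6 and 21.1 in ARID1B_WT 1 and 2 and of 34.4, 39.9, 32.3 and 32.5 in Empty_vector 1 to 4. The ARID1B-only kept regions had 16.7 and 17.9 with ARID1A_WT, 40.9 and 41.8 with ARID1B_WT and 28.9, 26.3, 37.7 and 35.4 in Empty_vector 1 to 4, where the libraries of the ARID1B_WT date code were higher too.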

How the data were processed

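Each of the 28 libraries has 1 peak list in hg19, made with MACS2 after Bowtie2, SAMtools 0.1.19 and Picard 2.8.0, per the submitters' processing notes; the options of the caller, a control and any cut-site shift were not given in the sources used here. Per the labels' protocols, tagmented DNA was amplified by PCR. The deposited columns give each peak a score, a fold enrichment (a ratio) and its p-value and q-value as -log10; these are the authors' values, ranked within a list only and given for single regions as description.

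Peaks of chromosomes 1 to 22 and X were ranked by -log10 p-value, cut to 19433 and merged, and a call was an overlap of 1 bp. Libraries were grouped by title. Single values were compared with exact permutation tests, and ranks with limma 3.58.1 in R 4.3.3 on 4 groups (ARID1A_WT, ARID1B_WT and Empty_vector of each date code set). On simulated data with 19945 regions, the direct contrast recovered 0%, 23.9% and 83.3% of shifts of 0.5, 1 and 2 units, with 3 false calls among 74. Tables used Python 3.11.15, numpy 2.4.6, pandas 2.3.3 and scipy 1.17.1.

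Members, classes and lists were chosen with earlier results of these data known. Named regions are the 10 best mean ranks per class with the Empty_vector libraries alike and the 5 smallest p-values per direction of the difference between proteins; the text gives a few of the former, chosen after their values were seen. The annotation given is of another build, so gene lists, cell type markers, start-site shares and motifs were not analysed here.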

Additional observations from a re-analysis of the deposited data

Results flagged for a closer look

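The shift against the empty vector differed between the proteins by the limma test of the difference in 20 regions with a higher value under ARID1A_WT and in 42 with a lower one, at an adjusted p under 0.05. The 5 of smallest p in each direction follow, with the difference in normal-score units.

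The 5 higher ones were chr7:27152487-27155838 at 2.49, chr20:44650199-44651747 at 2.16, chr4:42399106-42400290 at 2.58, chr19:4130785-4132020 at 2.18 and chr4:169970232-169970555 at 2.19, with adjusted p (limma) from 0.00996 to 0.0108. At the first of these the percentile among common regions was 8.56 and 5.00 in ARID1A_WT, 2.90 and 5.36 in ARID1B_WT and 0.450, 0.680, 41.4 and 35.5 in Empty_vector 1 to 4. The proteins overlap there and the Empty_vector libraries split by date code. At chr19:4130785-4132020 the percentile was 45.2 and 51.7 in ARID1A_WT, 6.87 and 6.11 in ARID1B_WT and 1.83, 2.79, 12.5 and 7.57 in Empty_vector 1 to 4, so that ARID1A_WT stood apart from all other 6 libraries.

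The 5 lower ones were chr8:129188377-129190006 at -2.56, chr3:127936215-127937631 at -2.72, chr10:93356384-93358634 at -2.22, chr18:46073888-46075208 at -3.11 and chr6:43894046-43895318 at -2.46, with adjusted p (limma) from 0.00759 to 0.0101. At chr10:93356384-93358634 the percentile was 60.7 and 67.1 in ARID1A_WT, 80.1 and 81.2 in ARID1B_WT and 43.1, 40.2, 2.41 and 3.07 in Empty_vector 1 to 4. At chr3:127936215-127937631 it was 2.55 and 4.51 in ARID1A_WT, 9.21 and 13.7 in ARID1B_WT and 64.4, 61.2, 2.68 and 5.07 in Empty_vector 1 to 4. In these examples the Empty_vector libraries of the date codes differ by more than the proteins do.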

How the results depend on the processing

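Depth is unknown, peaks of equal-length lists are wider in the date codes of ARID1A_WT, and exact tests of 2 against 2 libraries cannot reach a p under 0.333, so counts of region calls are descriptions. Values below are given for ARID1A_WT and then ARID1B_WT. Of 291 alternatives for 28 results, 147 stayed within the spread or within 1.5 times the value given above; for those that did not, the cause was not tested.

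The merged regions numbered 95412 in whole lists, 15698 with 9716 peaks and 42141 with 24527 peaks. They numbered 42695 ranked by fold enrichment, 23785 at equal covered length and 32241 with 50% covered, against 32972 above. Counts are of these totals and are not comparable in size between settings. Whole lists gave 6525 and 3175 regions of 1 protein, 3871 and 3065 with the Empty_vector libraries alike, 3607 and 3053 new, 264 and 12 kept, and Empty_vector splits of 13083 and 50, where list lengths differ. The ratio of ARID1B_WT over ARID1A_WT was 0.959 for added regions, which reversed it, and 3.41 for regions left out; the difference in median width was 64.5 bp and in covered length 10.9 Mb. Lists of 9716 peaks gave 838 and 876, 421 and 730 with the Empty_vector libraries alike, 136 and 692 new, 285 and 38 kept, splits of 456 and 432, and ratios of 2 and 2.5. Lists of 24527 peaks gave 813 ARID1A-only new regions, splits of 1532 and 1249 and a ratio of added regions of 1.33. Ranking by fold enrichment gave splits of 2938 and 3026, a Jaccard index of 0.548 between the proteins, and ratios of 1.35 and 1.51. Equal covered length gave 280 ARID1A-only regions, 174 with the Empty_vector libraries alike, 79 new and 95 kept, splits of 120 and 1497, a Jaccard index of 0.655, and ratios of 3.52 and 1.15. Asking for 50% of the region to be covered gave splits of 2666 and 451, 21 ARID1B-only kept regions, a Jaccard index of 0.629, ratios of 1.28 and 3.02, and 7362 ARID1A_WT-alone regions in long lists. The Empty_vector index across date codes was 0.549, 0.718 and 0.665 under the last 3 settings and 0.559 in whole lists, where the proteins had 0.689.

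For the rank shifts, counts are higher and then lower. Ranking by fold enrichment gave 0 and 1 for ARID1A_WT minus ARID1B_WT, 0 and 0 for the difference between proteins beyond date code, 28 and 130 for ARID1A_WT and 246 and 214 for ARID1B_WT against their Empty_vector libraries, and 188 lower for Empty_vector by date code (limma). The percentile scale gave 66 and 144, 0 and 9, 290 and 142 for ARID1A_WT, and 267 and 361 for Empty_vector. Regions in all 8 equal-length lists gave 29 and 75, 0 and 5, 82 and 29, 243 and 99, and 84 and 150 in the same order. The 4 wild-type libraries alone gave 57 and 160.

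The fit with a replicate block, on 6 libraries, gave 168 and 375, against 230 and 484 without it. Deviations of libraries that share a number correlated at 0.00811, 0.0154 and -0.0820, so the numbers do not pair the samples.

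Leaving out 1 library each gave ranges of 2462 to 2754 and 2241 to 2783 for the regions of 1 protein, 1278 to 2232 and 1643 to 2427 with the Empty_vector libraries alike, 551 to 823 and 1528 to 2202 new, 720 to 1482 and 107 to 242 kept, 1435 to 1731 and 1198 to 1604 for the Empty_vector splits, and 6962 to 9016 and 6970 to 9196 for long lists, where fewer libraries must agree. The Jaccard index ran from 0.675 to 0.693, the ratio of added regions from 1.36 to 1.41 and of regions left out from 1.65 to 1.83, the width difference from 196 to 294 bp, the covered length difference from 3.58 to 5.37 Mb and the balance of calls from 13.5 to 26 points. Rank shift counts ran from 10 to 138 and 30 to 212 for ARID1A_WT minus ARID1B_WT (lowest without ARID1A_WT 1 or 2), 0 to 50 and 0 to 100 beyond date code (0 without Empty_vector 1 or 2), 115 to 163 and 30 to 63 for ARID1A_WT, 573 to 940 and 326 to 552 for ARID1B_WT and 77 to 595 and 162 to 702 for Empty_vector by date code. The construct means over all date codes gave 27.4 points. Gene lists, markers and motifs were not run, for want of an annotation of the build.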
